A study of Mus musculus with 18 samples.

Results

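The 10 genes described here encode sensors, the adaptor, the enzymes and the pore-forming effector of the inflammasome, together with a kinase that a sensor needs. They are *Nlrp3*, *Nlrp1b*, *Nlrc4*, *Aim2*, *Mefv*, *Nek7*, *Pycard*, *Casp1*, *Casp4* and *Gsdmd*. They were taken by name, through the Ensembl identifiers of GRCm38, from the 55029 genes listed for 12 of the libraries and the 54232 listed for the other 6, and each of the 10 was present in both gene lists.

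An inflammasome is a protein complex that forms in the cytosol when a sensor meets a microbial product, a toxin or a disturbance of the cell. The sensors recruit the adaptor ASC, the product of *Pycard*, which brings in caspase-1, while caspase-11, the product of mouse *Casp4*, binds bacterial lipopolysaccharide in the cytosol without that adaptor. Both caspases cut gasdermin D, whose fragment forms pores in the plasma membrane and can end in lytic death (pyroptosis), and caspase-1 also matures the cytokines IL-1β and IL-18. In macrophages many of these genes are regulated by bacterial products and interferons, which is called priming.

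The RNA is from mouse eosinophils stimulated with agents tied to type 1 or type 2 immunity. The mice were C57BL/6 and carried an *Il5* transgene (NJ.1638), which makes eosinophils abundant, and the cells came from the peritoneal cavity by negative selection against Thy1.2 and B220. Cells were left unstimulated or received heat-inactivated *E. coli*, IFN-γ at 50 ng/ml, IFN-γ with *E. coli*, or IL-4 at 100 ng/ml for 18 h. Whether the unstimulated cells were cultured for the same time is not stated in the labels or methods used here. The age of the mice was not part of the labels used here.

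There were 18 libraries in 6 groups of 3, and they formed a pair of sets by the layout of their files. The larger set, of 12 libraries, held unstimulated libraries a to c and the 3 libraries each for *E. coli*, IFN-γ and IFN-γ with *E. coli*. The smaller set, of 6, held unstimulated libraries d to f and the 3 IL-4 libraries. Counts on genes were 1523808 to 2734041 per library in the former and 3625036 to 6482289 in the latter, so that a floor of 3 counts equals 1.10 to 1.97 and 0.463 to 0.828 CPM (counts scaled to the total of the library), a figure that covers counting error only. In the 12-library set the highest count of any gene was 4089 to 4095 in every library, against 87377 to 191131 in the 6-library set, and the highest count of any of the 10 genes there was 979. Levels are given as CPM scaled by edgeR's TMM factors within a set, and levels of different genes or of different sets are not on one scale.

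Each comparison was tested by the quasi-likelihood method of edgeR, with p-values adjusted by Benjamini and Hochberg over all genes tested, and calls were made where the adjusted p was below 0.05. Of the 10 genes, 9 passed the filter on low counts in the 12-library set, where *Nlrc4* did not, and 10 passed in the 6-library set. The labels do not say whether replicates are separate mice or separate cultures, so the p-values measure the spread between these libraries. These are bulk samples, in which fewer cells of a type and less RNA per cell cannot be told apart.

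With *E. coli*, 4 of the 9 tested genes were called, *Nlrp3* higher and *Nlrp1b*, *Casp1* and *Gsdmd* lower, while 30.2% of all 9883 genes tested were called. With IFN-γ 6 were called, *Casp1*, *Casp4*, *Nlrp3* and *Gsdmd* higher and *Pycard* and *Nek7* lower, against 31.6% of all genes. Both stimuli together led to 7 calls, *Nlrp3*, *Mefv*, *Casp1* and *Casp4* higher and *Nlrp1b*, *Pycard* and *Nek7* lower, against 49% of all genes. With IL-4 2 of the 10 were called, *Pycard* and *Casp4*, both higher, against 10.3% of all 10556 genes tested.

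**Figure D1:**
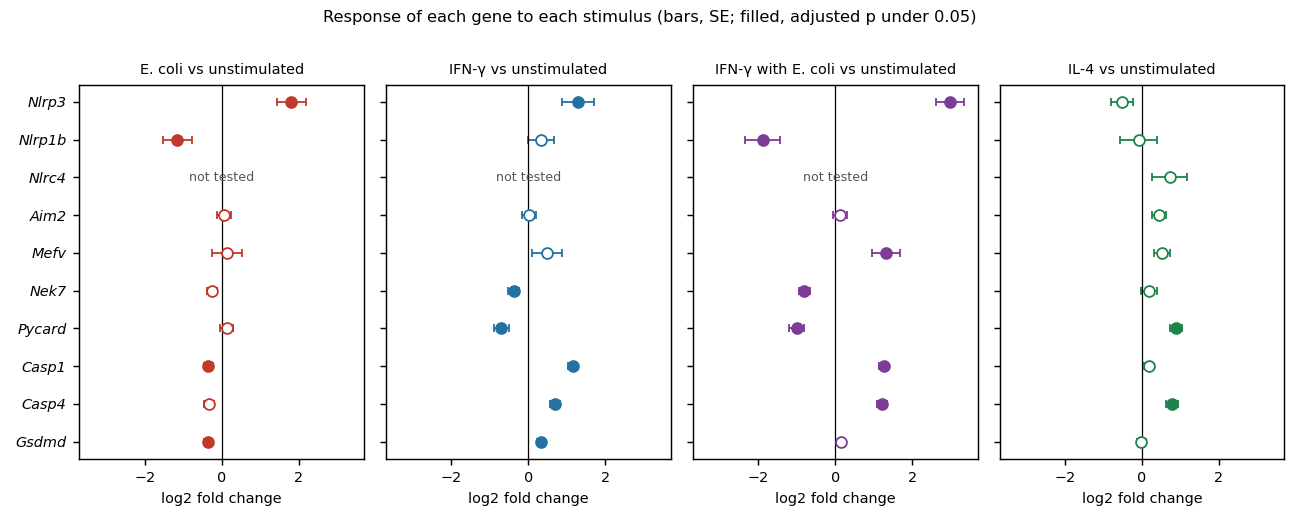
Log2 fold change of each of the 10 genes (horizontal axis) for each stimulus against the unstimulated libraries of its own set, with bars of 1 standard error and filled points for an adjusted p under 0.05. *Nlrp3* has the point farthest to the right with *E. coli* (1.81) and with IFN-γ and *E. coli* together (2.98), and *Pycard* is called lower with IFN-γ (-0.70) and higher with IL-4 (0.89).

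The median log2 fold change of the tested genes among the 10 was -0.25 with *E. coli*, 0.33 with IFN-γ, 0.16 with both and 0.32 with IL-4. Over all genes tested the corresponding medians were -0.02, -0.03, -0.04 and 0.00. Scaling by library totals alone, without TMM, moved these medians over all genes to -0.05, -0.21, -0.29 and 0.06, and the values below are relative to the TMM scale. On that other scale the split of called genes into higher and lower was 970 and 2448 with IFN-γ, where TMM gave 1541 and 1579, and 1536 and 3676 with both stimuli, where TMM gave 2358 and 2486.

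*Nlrp3* (ENSMUSG00000032691, chromosome 11) encodes the sensor that responds to potassium loss and membrane damage. Its level was 11.1, 7.55 and 9.41 CPM in unstimulated libraries a to c, 23.5, 25.6 and 54.9 CPM with *E. coli*, and 22.8, 21.9 and 26.0 CPM with IFN-γ. With IFN-γ and *E. coli* together it was 41.4, 72.4 and 113 CPM. Every stimulated library was above every unstimulated one, and replicate 3 was well above the other replicates with *E. coli* and highest with both stimuli. Over all genes these replicate 3 libraries also stood apart. Chi-square per gene was 3.76 and 4.60 against *E. coli* replicates 1 and 2, and 1.64 between those replicates. With both stimuli it was 6.04 and 5.02, and 2.66 between replicates 1 and 2. The log2 fold change against unstimulated cells was 1.81 with *E. coli* (standard error 0.38, adjusted p = 0.00117), 1.28 with IFN-γ (0.41, adjusted p = 0.0232) and 2.98 with both (0.36, adjusted p = 1.56e-06), the last a 7.88-fold rise.

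The call of *Nlrp3* with IFN-γ was lost without IFN-γ replicate 3 (adjusted p = 0.0630), unstimulated replicate b (0.0590) or unstimulated replicate c (0.0582). Leaving out *E. coli* replicate 3 and replicate 3 of the joint stimulus together, an alternative chosen after seeing the data, gave log2 fold changes of 1.36, 1.29 and 2.59 for *E. coli*, IFN-γ and both, and each of the 3 was still called. In the 6-library set *Nlrp3* was at 8.57, 8.92 and 12.8 CPM in unstimulated libraries d to f and at 5.30, 7.61 and 8.26 CPM with IL-4. The IL-4 libraries were all below the unstimulated ones, but the log2 fold change of -0.53 did not pass the test (adjusted p = 0.278).

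*Nlrp1b* (ENSMUSG00000070390, chromosome 11) encodes an inflammasome sensor, and its counts were few. It was at 8.48, 4.40 and 7.78 CPM in unstimulated libraries a to c, at 4.05, 2.99 and 2.45 CPM with *E. coli*, and at 7.79, 12.2 and 6.51 CPM with IFN-γ. With both stimuli it was at 1.45, 2.18 and 1.97 CPM, which are counts of 2, 4 and 3. Libraries with *E. coli*, alone or with IFN-γ, all lay below the unstimulated libraries, and those with IFN-γ alone overlapped them.

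*Nlrp1b* fell by 1.15 on the log2 scale with *E. coli* (standard error 0.37, adjusted p = 0.0248) and by 1.89 with both stimuli (0.46, adjusted p = 0.00237). The latter rests on 9 counts in 3 libraries against 49 in the unstimulated ones, and the ratio of summed counts, scaled to the effective library sizes, was 0.261 with a 95% interval of 0.113 to 0.538 from counting error alone. The fall with *E. coli* was no longer called with DESeq2 (adjusted p = 0.128), nor without *E. coli* replicate 2 (0.0895) or 3 (0.0771), unstimulated replicate a (0.123) or c (0.0762), or the pair of replicate 3 libraries (0.0677). With IL-4 it was at 4.17, 3.14 and 3.87 CPM against 7.47, 2.48 and 2.44 CPM in unstimulated libraries d to f, an overlap, and was not called (adjusted p = 0.933).

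*Nlrc4* (ENSMUSG00000039193, chromosome 17), which with NAIP proteins detects flagellin and secretion-system proteins of bacteria, had 2 to 15 counts per library in the 12-library set and was not tested there. Its group means were 3.14 (unstimulated), 4.34 (*E. coli*), 2.16 (IFN-γ) and 5.48 CPM (both), and each stimulated group overlapped the unstimulated one. With both stimuli 27 counts against 23 gave a ratio of 1.67 with a 95% interval of 0.922 to 3.05 from counting error alone. In the 6-library set it was at 2.99 ± 0.752 CPM with IL-4 and 1.79 ± 0.668 CPM unstimulated (SD, n = 3 each) and was not called (log2 fold change 0.72, adjusted p = 0.360), although the interval from counting error alone was 1.02 to 2.75 around a ratio of 1.66.

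*Aim2* (ENSMUSG00000037860, chromosome 1) encodes a sensor of double-stranded DNA in the cytosol and was not called under any of the stimuli. Its means were 29.1 (unstimulated), 30.5 (*E. coli*), 29.4 (IFN-γ) and 31.8 CPM (both stimuli), and all groups of that set overlapped. The log2 fold changes were 0.06, 0.02 and 0.12, each with a standard error under 0.19, and their signs turned under some of the alternatives. With IL-4 it was at 43.9, 41.0 and 42.3 CPM against 33.7, 23.8 and 36.1 CPM. These groups did not overlap, and the log2 fold change of 0.45 did not pass the test (standard error 0.18, adjusted p = 0.150).

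*Mefv* (ENSMUSG00000022534, chromosome 16) encodes pyrin, a sensor that responds to certain bacterial toxins. It was at 8.48, 8.18 and 8.60 CPM in unstimulated libraries a to c, at 6.89, 6.64 and 15.7 CPM with *E. coli*, and at 6.68, 14.8 and 14.3 CPM with IFN-γ. With both stimuli it was at 17.4, 15.2 and 31.5 CPM. Only the libraries with both stimuli were all above the unstimulated ones, and as with *Nlrp3* replicate 3 was the highest there and with *E. coli*. The rise with both stimuli was 2.50-fold (log2 fold change 1.32, standard error 0.36, adjusted p = 0.00546), and it was 0.94 on the log2 scale without the pair of replicate 3 libraries (adjusted p = 0.0186). With IL-4 it was at 21.3 ± 2.79 CPM against 14.8 ± 3.25 CPM unstimulated (SD, n = 3 each), the groups overlapped, and the log2 fold change of 0.52 was not called (adjusted p = 0.158).

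*Nek7* (ENSMUSG00000026393, chromosome 1) encodes the kinase that binds NLRP3 and lets it assemble. Its level was 137, 102 and 129 CPM in unstimulated libraries a to c, 104, 101 and 107 CPM with *E. coli*, and 91.8, 95.7 and 96.3 CPM with IFN-γ. With both stimuli it was 71.8, 82.7 and 57.1 CPM. The libraries with IFN-γ, and those with both stimuli, all lay below the unstimulated ones, and the *E. coli* libraries overlapped with unstimulated library b. *Nek7* fell by 0.80 on the log2 scale with both stimuli (standard error 0.14, adjusted p = 0.000104) and by 0.39 with IFN-γ (0.13, adjusted p = 0.0343), while -0.25 with *E. coli* was not called (adjusted p = 0.154).

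The fall of *Nek7* with IFN-γ was not called with DESeq2, without the filter on low counts (adjusted p = 0.0835), or in 8 of the 12 fits that left out a library, with adjusted p up to 0.172. For IL-4, *Nek7* was at 68.9, 103 and 128 CPM unstimulated and 127, 116 and 98.6 CPM with IL-4, which overlap (log2 fold change 0.19, adjusted p = 0.615). Its exons share 118 bases with *Gm28501* on the opposite strand.

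*Pycard* (ENSMUSG00000030793, chromosome 7), the adaptor ASC, was the gene of the 10 called in opposite directions by IFN-γ and by IL-4. It was at 82.6, 68.6 and 50.8 CPM in unstimulated libraries a to c, at 44.5, 39.7 and 40.3 CPM with IFN-γ, and at 29.0, 42.4 and 28.2 CPM with both stimuli. Both groups lay below all unstimulated libraries. *Pycard* fell by 0.70 on the log2 scale with IFN-γ (standard error 0.19, adjusted p = 0.00739) and by 1.01 with both stimuli (0.19, adjusted p = 0.000298), a 2.01-fold lower level. With *E. coli* alone it was at 63.6, 78.3 and 79.4 CPM, which overlaps the unstimulated libraries, and was not called (log2 fold change 0.13, adjusted p = 0.623).

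In the 6-library set *Pycard* was at 62.5, 45.2 and 64.4 CPM in unstimulated libraries d to f and at 103, 112 and 103 CPM with IL-4. All 3 IL-4 libraries were above all 3 unstimulated ones, and the rise was 1.85-fold (log2 fold change 0.89, standard error 0.16, adjusted p = 0.00564). Unstimulated library e, the lowest of its group for *Pycard*, *Casp4* and *Aim2*, stood apart from d and f over all genes (chi-square per gene 23.7 and 22.0, against 7.86 between d and f). Without it the log2 fold changes with IL-4 were 0.74 for *Pycard* and 0.65 for *Casp4*, both still called, and 0.27 for *Aim2*. Without unstimulated library a, the fall of *Pycard* with IFN-γ was not called (log2 fold change -0.51, adjusted p = 0.0736). The exons of *Pycard* share 485 bases with *Gm45205* on the opposite strand.

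*Casp1* (ENSMUSG00000025888), which encodes the enzyme that matures IL-1β and IL-18, was at 213, 238 and 214 CPM in unstimulated libraries a to c. It was at 476, 476 and 526 CPM with IFN-γ and at 522, 533 and 538 CPM with both stimuli. The libraries with IFN-γ, alone or with *E. coli*, were all far above the unstimulated ones and their replicates were close together. The rise was 2.21-fold with IFN-γ (log2 fold change 1.15, standard error 0.11, adjusted p = 3.92e-07) and 2.39-fold with both (1.26, standard error 0.12, adjusted p = 4.73e-08).

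With *E. coli* alone *Casp1* was at 158, 160.0 and 208 CPM. These libraries lay below the unstimulated ones, with replicate 3 close to them, and the log2 fold change was -0.34 (standard error 0.12, adjusted p = 0.0312). That call was lost with DESeq2 (adjusted p = 0.0514), without the filter on low counts (0.107), with the 6 compared libraries fitted alone (0.0529) and without *E. coli* replicate 1 (0.162) or 2 (0.160), unstimulated replicate a (0.0550), b (0.116) or c (0.0511), or IFN-γ replicate 2 (0.0557). With IL-4 *Casp1* was at 281, 267 and 299.9 CPM against 247, 237 and 268 CPM, which overlap, and was not called (log2 fold change 0.17, adjusted p = 0.373).

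*Casp4* (ENSMUSG00000033538), the gene of caspase-11, was at 56.4, 51.0 and 61.0 CPM in unstimulated libraries a to c and at 91.3, 93.7 and 89.1 CPM with IFN-γ. With both stimuli it was at 122, 143 and 128 CPM, and with *E. coli* alone at 42.6, 41.5 and 51.5 CPM. The levels were in the order *E. coli*, unstimulated, IFN-γ and both stimuli, and the only neighbours in that order that overlapped were *E. coli* and unstimulated. The rise was 1.61-fold with IFN-γ (log2 fold change 0.69, standard error 0.13, adjusted p = 0.000330) and 2.32-fold with both stimuli (1.21, standard error 0.12, adjusted p = 1.83e-07).

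The value of *Casp4* with *E. coli*, -0.33, was not called (adjusted p = 0.0604), but was with at least 10 counts required in every library (adjusted p = 0.0393). It was also called without *E. coli* replicate 3 (0.0369) and without the pair of replicate 3 libraries (-0.42, adjusted p = 0.0278). For IL-4, *Casp4* was at 47.3, 37.0 and 49.4 CPM unstimulated and 77.8, 66.2 and 84.9 CPM with IL-4. The groups did not overlap and the rise was 1.71-fold (log2 fold change 0.78, standard error 0.16, adjusted p = 0.0137). It was not called without IL-4 replicate 1 (adjusted p = 0.0737) or IL-4 replicate 3 (adjusted p = 0.0764).

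*Gsdmd* (ENSMUSG00000022575, chromosome 15) encodes gasdermin D, the pore former. It was at 220.5, 223 and 219 CPM in unstimulated libraries a to c, at 182, 168 and 167 CPM with *E. coli*, and at 264, 284 and 284 CPM with IFN-γ. With both stimuli it was at 258, 225 and 259.7 CPM. None of the stimulated groups overlapped the unstimulated libraries, whose spread was small (221 ± 1.87 CPM, SD, n = 3), but the changes were small as well. *Gsdmd* fell by 0.36 on the log2 scale with *E. coli* (standard error 0.10, adjusted p = 0.00991) and rose by 0.33 with IFN-γ (0.10, adjusted p = 0.0180), and its 0.16 with both stimuli was not called (adjusted p = 0.199).

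With library totals in place of TMM the log2 fold change of *Gsdmd* with IFN-γ was 0.15 and no longer called (adjusted p = 0.229), nor was it called without unstimulated library a (adjusted p = 0.0503). The fall with *E. coli* was not called without the filter on low counts (adjusted p = 0.0859) or without *E. coli* replicate 2 (adjusted p = 0.0546). With IL-4 *Gsdmd* was at 163 ± 3.92 CPM against 165 ± 10.8 CPM unstimulated (SD, n = 3 each), which overlap (log2 fold change -0.02, adjusted p = 0.947).

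**Figure D2:**
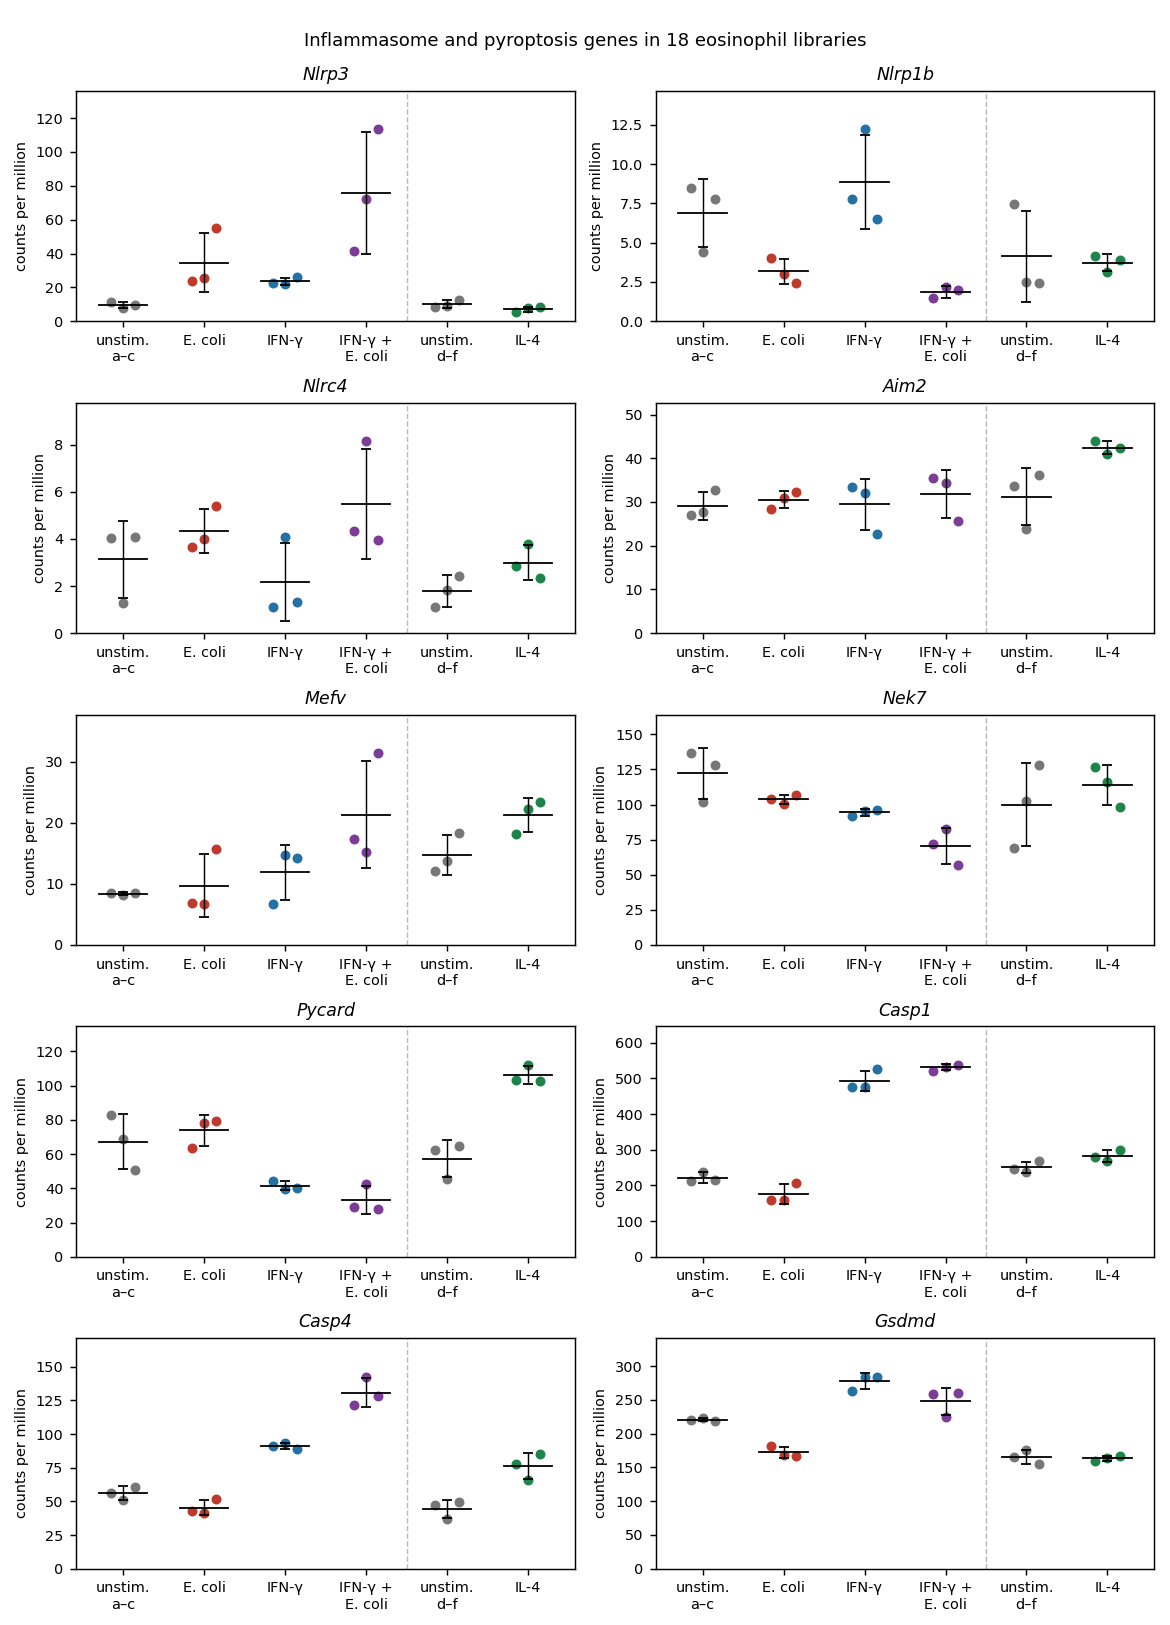
CPM (vertical axis, scaled by TMM within each set) of the 10 genes in the 18 libraries, with points for libraries, long bars for group means and error bars of 1 SD, and a dashed line between the sets. *Casp1* sits at 476 to 538 in the 6 libraries with IFN-γ and at 158 to 238 in the other 6 libraries of that set, and *Nlrp3* is highest in replicate 3 of the joint stimulus, at 113.

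How the stimuli differed from each other was tested directly within the 12-library set. IFN-γ against *E. coli* gave 5 called genes of the 9, with 25.5% of all genes called. *Casp1* (log2 fold change 1.49), *Casp4* (1.02), *Gsdmd* (0.69) and *Nlrp1b* (1.48) were higher with IFN-γ and *Pycard* (-0.83) was lower, with adjusted p-values of 1.10e-08, 5.00e-06, 3.40e-05, 0.00596 and 0.00210. In each of the 5 the 3 libraries of one stimulus lay apart from the 3 of the other, as they did for *Nek7*, which was not called (adjusted p = 0.516). The share of all genes whose groups lie apart is not given for this or the following comparisons. The value of *Nlrp1b* was not called without IFN-γ replicate 2 (adjusted p = 0.0617). *Nlrp3* was at 23.6 ± 2.17 CPM with IFN-γ and 34.7 ± 17.6 CPM with *E. coli* (SD, n = 3 each), which overlap, and was not called (adjusted p = 0.280).

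Adding *E. coli* to IFN-γ changed 3 of the 9, with 12.2% of all genes called. *Nlrp3* was 3.24-fold higher than with IFN-γ alone (log2 fold change 1.69, adjusted p = 0.00170), *Casp4* was 1.43-fold higher (0.52, adjusted p = 0.00734) and *Nlrp1b* was lower (-2.21, adjusted p = 0.00343). None of the 3 overlapped between the groups, nor did *Mefv*, *Gsdmd* and *Nek7*, which were not called. The *Casp4* value was not called without replicate 2 of the joint stimulus (adjusted p = 0.0505). *Nek7*, whose groups did not overlap, was at -0.42 and not called (adjusted p = 0.0675), but it was with a replicate block in a fit of the 6 compared libraries (-0.45, adjusted p = 0.0416), without replicate 2 of the joint stimulus (0.0372) and without unstimulated replicate b (0.0430). *Casp1*, already raised by IFN-γ, had a log2 fold change of 0.11 and was not called (adjusted p = 0.612).

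Adding IFN-γ to *E. coli* changed 7 of the 9, with 32.8% of all genes called. *Casp1* was 3.03-fold higher (log2 fold change 1.60, adjusted p = 4.36e-09), *Casp4* 2.91-fold (1.54, adjusted p = 1.73e-08), *Nlrp3* 2.25-fold (1.17, adjusted p = 0.00516), *Mefv* 2.26-fold (1.17, adjusted p = 0.0150) and *Gsdmd* 1.44-fold (0.52, adjusted p = 0.000554). *Pycard* was 2.19-fold lower (adjusted p = 0.000145) and *Nek7* 1.46-fold lower (adjusted p = 0.00524). The groups overlapped for *Nlrp3* and *Mefv* and for none of the other 5. They did not overlap for *Nlrp1b* either, which was not called (adjusted p = 0.310). The *Nlrp3* value was 0.77 on the log2 scale without replicate 3 of the joint stimulus, and the *Mefv* value was not called without that library (adjusted p = 0.111) or without *E. coli* replicate 1 (0.0688) or 2 (0.0819). The fall of *Nek7* was not called without the pair of replicate 3 libraries (adjusted p = 0.0532).

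On the scale of library totals the called genes of these comparisons split into 1062 higher and 1937 lower for IFN-γ against *E. coli* (TMM 1393 and 1132), 443 and 815 for both against IFN-γ (618 and 591), and 1097 and 2859 for both against *E. coli* (1725 and 1515). On that scale the 3 comparisons still called 5, 3 and 7 of the 9 genes.

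The effect of both stimuli together was compared with the sum of the single effects on the log2 scale, which asks only whether their fold changes multiply. Of the 9 tested genes 1 departed from the sum, *Casp4*, against 4.62% of all genes. Its value was -0.33 for *E. coli*, 0.69 for IFN-γ and 1.21 for the joint stimulus, which is 0.85 above the sum (standard error 0.18, adjusted p = 0.00842). Among the marker genes of other cells, 5 of 5 tested B cell markers and 2 of 11 macrophage and monocyte markers were also called above the sum. *Casp1* was 0.45 above its sum and not called (standard error 0.16, adjusted p = 0.131), but it was without *E. coli* replicate 3 (0.58, adjusted p = 0.0322) and without the pair of replicate 3 libraries (0.57, adjusted p = 0.0333). *Nlrp3* was at -0.12 with a standard error of 0.50, too wide an error to tell small departures from none (adjusted p = 0.943).

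The IL-4 response was set against the response to IFN-γ with *E. coli*, each taken against the unstimulated libraries of its own set, to compare a type 2 with a type 1 stimulus. The difference was called for 6 of the 10 genes, with 39.2% of all 10671 genes called, and the stimulus cannot be told apart from the set its libraries belong to. *Pycard* (difference 1.84, adjusted p = 7.56e-06), *Nek7* (0.92, adjusted p = 0.00597) and *Nlrp1b* (1.75, adjusted p = 0.0485) had the more positive log2 response to IL-4. *Nlrp3* (-3.57, adjusted p = 6.88e-06), *Casp1* (-1.14, adjusted p = 6.48e-06) and *Casp4* (-0.50, adjusted p = 0.0474) had the more positive response to IFN-γ with *E. coli*. Marker genes of cell types were called in this difference as well. Of 8 eosinophil markers tested 5 were higher and 1 lower, and of 12 macrophage and monocyte markers 1 was higher and 4 were lower. Of 5 B cell markers 3 were higher and none lower, and of 5 neutrophil markers 1 was higher and 2 were lower.

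The differences of *Pycard*, *Nek7*, *Nlrp3* and *Casp1* were called under each alternative that refitted the data, though *Nek7* is under the 2-fold limit, while that of *Casp4* was lost under 20 of 25 and that of *Nlrp1b* under 18 of 24. On the scale of library totals, which moved the median over all genes from 0.00 to 0.38, the *Casp4* difference was -0.12 (adjusted p = 0.676), and the called genes split into 3177 higher and 1252 lower where TMM gave 1974 and 2210. *Casp4* rose under both stimuli, by 0.78 and 1.21.

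*Casp1* and *Casp4* are neighbours on the forward strand of chromosome 9, at chr9:5298517-5307265 and chr9:5308828-5336783, with 1562 bases between them. *Casp12*, the next caspase gene after a gap of 8646 bases, had no count in any library of the 12-library set and at most 7 in the 6-library set, so that the rise of its neighbours was not seen there at this depth.

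Promoters from RefSeq (GRCm38.p6, 250 bases before to 50 after a gene's start) were matched by symbol for 9 of the 10 genes, in 12 entries, with none for *Gsdmd*. Both strands were searched for the letters TTCNNNNGAA (a STAT6-type site), GAAANNGAAA (the core of an interferon-stimulated response element, ISRE) and the NF-κB consensus. A further pattern was searched and is not named here, and it was in 0 of the 12 entries and in 8.30% of all promoters. The ISRE letters were in 0 of the 12 entries, and in 3.44% of the 32851 promoters of the table. The STAT6-type letters were in 3 entries (*Nlrp3*, *Nlrp1b* and *Nek7*) and in 6.95% of all promoters, and the NF-κB consensus in 3 entries (*Nlrp3* and both of *Casp4*, which overlap and hold the same sites) and in 8.46%. These are matches of letters in a short window, and their absence or presence says nothing of binding.

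The promoters of *Casp1* (chr9:5298267-5298566) and *Casp4* (chr9:5308599-5308898) are shown because these neighbours rose together with IFN-γ, and that of *Nlrp3* (chr11:59541319-59541618, the upstream of its 2 entries) because it had the largest change with *E. coli* among the 10. All 3 are on the forward strand of GRCm38.p6 and are written 5′ to 3′, and capitals mark matches to the NF-κB consensus on either strand. The first run of capitals in *Casp4* holds a pair of overlapping matches, 3 in all with the second run, and *Casp1* has none.
Casp1: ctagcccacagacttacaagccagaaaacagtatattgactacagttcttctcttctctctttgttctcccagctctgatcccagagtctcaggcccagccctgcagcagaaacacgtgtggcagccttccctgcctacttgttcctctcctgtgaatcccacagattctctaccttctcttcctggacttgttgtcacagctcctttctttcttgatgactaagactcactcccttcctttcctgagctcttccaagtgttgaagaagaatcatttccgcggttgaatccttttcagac
Casp4: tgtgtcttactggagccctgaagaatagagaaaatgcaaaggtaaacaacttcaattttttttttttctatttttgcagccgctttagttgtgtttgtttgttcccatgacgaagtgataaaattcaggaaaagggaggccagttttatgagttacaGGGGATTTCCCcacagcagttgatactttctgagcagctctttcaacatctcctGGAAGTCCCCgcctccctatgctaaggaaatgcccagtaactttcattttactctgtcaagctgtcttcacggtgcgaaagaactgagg
Nlrp3: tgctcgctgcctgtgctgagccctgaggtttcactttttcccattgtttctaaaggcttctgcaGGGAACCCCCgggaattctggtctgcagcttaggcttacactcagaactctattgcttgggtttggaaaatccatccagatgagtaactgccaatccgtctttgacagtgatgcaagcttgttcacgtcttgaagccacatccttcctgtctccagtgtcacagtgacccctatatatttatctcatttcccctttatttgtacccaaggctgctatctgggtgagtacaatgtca

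Around the 10 genes, 55 other genes of the pathway were followed in 6 lists: other sensors, genes that license sensors or move ions, caspases of cell death and their partners, other gasdermins with *Ninj1*, the substrates *Il1b* and *Il18*, and inhibitors or repair factors. In the 12-library set 42 of them were tested. After *E. coli* 5 of these were higher and 13 were lower, for IFN-γ the counts were 19 and 6, and for both stimuli 20 and 8, which is 42.9%, 59.5% and 66.7% of those tested where 30.2%, 31.6% and 49% of all genes were called. In the 6-library set 43 were tested and 9 were called higher and 1 lower, which is 23.3% where 10.3% of all genes were called. Their median log2 fold change was -0.19, 0.22, 0.44 and 0.26 in these 4 comparisons, beside medians over all genes of -0.02, -0.03, -0.04 and 0.00.

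Of the 12 other sensors 9 were tested. With *E. coli* 5 of the 9 were called lower and none higher, with IFN-γ 3 were higher and 3 lower, with both 1 was higher and 4 lower, and with IL-4 3 were higher and none lower. The shares of all genes called, 30.2%, 31.6%, 49% and 10.3% for these 4 comparisons, apply to this and the following lists as well. *Nlrp12*, a member of the NLR family known to dampen inflammatory signalling, was at 53.1, 59.8 and 49.9 CPM unstimulated, 17.0, 14.9 and 17.2 CPM with *E. coli*, 17.1 ± 2.17 CPM (SD, n = 3) with IFN-γ and 9.43, 8.71 and 9.18 CPM with both. It was lower in all 9 stimulated libraries, and its log2 fold changes were -1.73, -1.66 and -2.57 (adjusted p = 1.56e-07, 3.96e-07 and 2.46e-09). With IL-4 it rose from 15.2, 10.2 and 13.7 CPM to 30.5, 28.9 and 35.1 CPM (log2 fold change 1.28, adjusted p = 0.00277).

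*Naip5*, a partner of NLRC4 that binds flagellin, moved in the same directions as *Nlrp12*, with -0.90, -0.54 and -0.61 for *E. coli*, IFN-γ and both and 0.89 for IL-4, all called. It shares over 95% of its sequence with *Naip6* over 4398 bases and with *Naip1* over 1856 bases, so that reads may be assigned among these copies. *Nod1*, a sensor of bacterial peptidoglycan, fell by 1.52 with *E. coli* and rose by 1.00 with IFN-γ, and *Cgas*, the sensor of cytosolic DNA that makes the messenger cGAMP, fell by 0.89 with IFN-γ (adjusted p = 6.70e-05).

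Among genes that license sensors 11 were tested, of which 7 were higher and 1 lower by the test after IFN-γ, 9 higher and 1 lower with both stimuli, and none higher and 3 lower with *E. coli*. With IL-4 1 of 12 was called, and it was higher. The guanylate-binding proteins and *Gm12250* (IRGB10), which open bacterial membranes to cytosolic sensors, stood out in size. *Gbp5* was at 18.5 ± 6.01 CPM unstimulated and 88.6 ± 11.5 CPM with IFN-γ (SD, n = 3 each), without overlap (log2 fold change 2.21, adjusted p = 1.13e-06). *Gbp2* rose by 2.43 and *Gm12250* by 2.33 with IFN-γ. Counts of *Gbp2* reached 3706, close to the highest of any gene in that set, so that its change may be understated. *Pstpip1*, which binds pyrin, was called lower with each stimulus of that set, by -0.56, -0.38 and -1.07.

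Among the 9 tested caspases and partners, 1 was called higher and 3 lower after *E. coli*, 3 and 1 after IFN-γ, 4 and 3 with both stimuli, and 2 and none with IL-4. *Casp6* had log2 fold changes of -1.65 (*E. coli*), -1.16 (IFN-γ), -1.57 (both) and 0.96 (IL-4), all 4 called. *Ripk3*, a kinase of necroptosis, rose by 1.39, 0.69 and 1.32 with the 3 stimuli of that set and was at -0.03 with IL-4, which was not called.

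Of the other gasdermins *Gsdme*, which caspase-3 cuts, was the only one that passed the filter in that set. It was at 53.5, 52.8 and 46.7 CPM unstimulated and 110.3, 125 and 103 CPM with *E. coli*, without overlap (log2 fold change 1.15, adjusted p = 1.45e-06), and it fell by 0.52 with IFN-γ (adjusted p = 0.0107). Its joint effect was 0.78 below the sum of the single ones (adjusted p = 0.0272), and it rose with IL-4 (0.69, adjusted p = 0.00815). *Ninj1*, which ruptures the membrane after gasdermin pores have formed, rose by 0.47 with IFN-γ and 0.56 with both and fell by 0.80 with IL-4 (adjusted p = 0.00912, 0.00144 and 0.00372).

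Of the substrates of caspase-1, *Il1b* was at 61.9, 39.0 and 46.7 CPM in unstimulated libraries a to c, at 393, 400.3 and 718 CPM with *E. coli*, at 107, 106 and 91.1 CPM with IFN-γ and at 939, 1141 and 1209 CPM with both stimuli. None of these groups overlapped. Its log2 fold change was 3.32 for *E. coli* and 1.02 for IFN-γ, and for both it was 4.45 (standard error 0.23, adjusted p = 1.45e-11), 0.11 from the sum of the single effects (adjusted p = 0.910). Its counts reached 2096 in that set, where the highest of any gene was 4089 to 4095 in every library. The fit with counts lifted for a ceiling of 4096 covered *Il1b*, but its values for this gene are not given here. The 4.45 and the 0.11 thus hold for the counts as deposited. With IL-4 it rose by 0.87 (adjusted p = 0.00467). *Il1b* shares 25 exon bases with *Il1bos* on the opposite strand. *Il18* was not called with any stimulus, with 10 to 37 counts per library in the 12-library set.

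Of the 9 tested inhibitors and repair factors, 2 were called higher and 2 lower after *E. coli*, 4 and none after IFN-γ, the same numbers with both stimuli, and 1 and none with IL-4. *Serpinb1a*, which restrains inflammatory caspases, was at 49.0, 37.1 and 47.1 CPM unstimulated, 10.1, 13.3 and 19.6 CPM with *E. coli* and 245, 253 and 289 CPM with IFN-γ. The 3 groups lay apart, with log2 fold changes of -1.68 and 2.54 (adjusted p = 5.98e-06 and 9.80e-10), and it was called higher with both stimuli by 1.71. *Il18bp*, the soluble antagonist of IL-18, had values of the same signs, -0.85, 2.43 and 2.23, all called. *Tnfaip3*, which restrains NF-κB signalling, was called higher with each of the 4 stimuli, most with both (log2 fold change 2.31, adjusted p = 1.10e-10). Of the 4 membrane repair genes *Vps4a* was called higher with *E. coli* (0.50, adjusted p = 0.0117) and with no other stimulus, and *Chmp3*, *Chmp4b* and *Vps4b* were not called with any.

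Marker genes of cell types were measured beside these results. The 9 eosinophil markers summed to 3802, 5099.9 and 3954 CPM in unstimulated libraries a to c, 3496, 3094 and 3508 CPM for *E. coli*, 4046, 3580.1 and 4422 CPM for IFN-γ and 3254, 2872 and 3108 CPM for both. All libraries with *E. coli*, alone or with IFN-γ, were thus below the unstimulated ones, and those with IFN-γ alone overlapped them. Of the 6 tested, 1 was called higher and 2 lower for *E. coli*, none and 4 for IFN-γ, and 1 and 4 for both. In the smaller set the sums were 5150.0, 5981 and 5266 CPM unstimulated and 5006, 5207 and 5082 CPM with IL-4, which overlap, while of the 9 single markers 4 were called higher and 1 lower. *Alox15* or *Ccr3* was the most abundant, with counts up to 3732 and 3576 in the 12-library set, close to the highest of any gene there, so that these sums may depend on depth, and the granule gene *Epx* was at 0 in 5 libraries.

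The 12 macrophage and monocyte markers summed to 1457, 1379 and 1465 CPM in unstimulated libraries a to c, 1051, 932 and 1337 CPM with *E. coli*, 1963, 1835 and 1985 CPM with IFN-γ alone and 1597, 1709.8 and 1993 CPM with both, led by *Csf1r* or *Marco*. They were thus highest in replicate 3 with *E. coli* and with both stimuli, the same libraries in which *Nlrp3* and *Mefv* were highest, and the sum was higher in all 6 libraries with IFN-γ than in the other 6. Single markers differed, since with IFN-γ 5 of the 11 tested were higher and none lower by the test, 4 higher and 1 lower with both stimuli, and none higher and 3 lower with *E. coli*. In the 6-library set they summed to 2416, 2821 and 3027 CPM unstimulated and 2035, 1956 and 2258 CPM with IL-4, without overlap, led by *C1qb* or *C1qc*, and of the 12 single markers 5 were called lower and none higher.

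The 6 mast cell markers summed to 9.96, 8.81 and 7.37 CPM in unstimulated libraries a to c, 9.73, 6.64 and 34.3 CPM with *E. coli*, 30.0, 14.3 and 13.0 CPM with IFN-γ alone and 35.6, 70.2 and 66.2 CPM with both, led by *Tpsb2* or *Cma1*. With the smaller set they summed to 6.77 to 8.30 CPM unstimulated and 8.11 to 20.6 CPM with IL-4. *Ms4a2*, a defining marker, stayed at or under 3 counts in all 18 libraries. The mast cell sum was thus higher in *E. coli* replicate 3 than in the other *E. coli* libraries, and above every unstimulated library of the 12-library set in all 6 libraries with IFN-γ.

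The 6 B cell markers, led by *Ighm*, summed to 215, 194 and 116 CPM in unstimulated libraries a to c, 40.5, 44.2 and 76.0 CPM with *E. coli*, 99.6, 61.1 and 57.9 CPM with IFN-γ and 120.5, 133 and 127 CPM with both. They were 24.9, 23.6 and 43.2 CPM in unstimulated libraries d to f and 64.0, 58.4 and 71.5 CPM with IL-4. The 10 neutrophil markers, led in every library by *Retnlg*, summed to 583, 706 and 571 CPM in unstimulated libraries a to c, 448, 422 and 484 CPM for *E. coli*, 682, 630.4 and 739.8 CPM for IFN-γ and 350.5, 410.3 and 433 CPM for both. Of the 4 tested there, 2 were called higher and 1 lower for *E. coli* and for IFN-γ, and 2 and 2 for both, so that the sum mostly follows *Retnlg*. They summed to 1991, 1942 and 1675 CPM unstimulated in the smaller set and to 804, 831 and 771 CPM with IL-4. Of these sums *Retnlg* alone was 1970, 1921 and 1651 CPM unstimulated and 761, 789 and 704 CPM with IL-4. *Retnlg* made up most of that fall (log2 fold change -1.30), and of the other 4 neutrophil markers tested there *Cxcr2* was called higher (3.09) and 3 were not called.

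The 7 T cell, 5 NK cell and 6 dendritic cell markers summed to at most 9.22, 0.947 and 17.8 CPM in any library, and *Klrb1c* was at 0 in all 18. The paper checked the purity of the eosinophils by flow cytometry and described the contaminating cells as mostly lymphocytes. The 10 genes are also expressed in other leukocytes, macrophages among them, and what part these cells had in the results was not tested.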

How the data were processed

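RNA of 18 eosinophil libraries was analysed from the gene counts the authors deposited. These are given per Ensembl gene on GRCm38 and were made, per their methods, with TopHat2 2.1.0 and HTSeq 0.6.1. The methods also name fastp 0.20.1 and STAR 2.7.2a, without naming the libraries of each, and whether molecular identifiers were collapsed is not given in the sources used here. Reads on no feature were 18.9 to 37.6% and ambiguous reads 1.84 to 2.27% in the 12 libraries whose files hold them, and both were left out. Symbols were matched for 98.4% and 99.9% of the identifiers of the 2 sets.

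Each set was fitted with edgeR 4.0.16 (R 4.3.3, limma 3.58.1) with filterByExpr, TMM factors and a quasi-likelihood F-test, and the response difference in a fit of all 18 libraries. The standard errors are approximate, from the log2 fold change and the F statistic. Replicates were treated as unpaired, since libraries of the same number correlated over 0.1 in 1, 1 and 2 of 3 pairs for *E. coli* with IFN-γ, *E. coli* with both and IFN-γ with both.

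The 10 genes and the other lists were chosen with earlier results of these data known. Each of the 10 is accounted for, and the other lists are given as counts, with some of their genes named. The rule was to name called genes with the largest change first, which was not kept throughout, so the choice was in part made after their values were seen. Alternatives were DESeq2 1.42.0, its size factors, other filters on low counts, a 2-fold limit, fewer libraries, a replicate block and leaving out each library. Scaling without TMM, counts lifted for a ceiling of 4096 and leaving out a pair of libraries were added after seeing the data.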

Additional observations from a re-analysis of the deposited data

Results flagged for a closer look

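The following effects differed between groups by a test of the difference itself (edgeR). *Casp4* with IFN-γ and *E. coli* together was 0.85 above the sum of the single effects on the log2 scale (adjusted p = 0.00842), and all 3 libraries with both stimuli were above the 3 with IFN-γ alone. B cell markers (5 of 5 tested) and macrophage and monocyte markers (2 of 11) were called above the sum as well.

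The response to IL-4 minus that to IFN-γ with *E. coli* was -3.57 for *Nlrp3*, -1.14 for *Casp1*, -0.50 for *Casp4*, 1.75 for *Nlrp1b*, 1.84 for *Pycard* and 0.92 for *Nek7* (adjusted p = 6.88e-06, 6.48e-06, 0.0474, 0.0485, 7.56e-06 and 0.00597). The difference of *Casp4* was no longer called under 20 of 25 alternatives (-0.12 without TMM) and that of *Nlrp1b* under 18 of 24. Markers of eosinophils (5 higher and 1 lower of 8) and of macrophages and monocytes (1 and 4 of 12) were called in this difference too. So were markers of B cells (3 higher and none lower of 5) and neutrophils (1 and 2 of 5). Stimulus and set cannot be told apart in the 6 differences of the genes described here, and their causes were not tested.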

How the results depend on the processing

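Of 41 called values of the 10 genes, 27 were called under each alternative that refitted the data and 14 were lost under at least 1, the 2-fold limit aside. Over 1625 refitted log2 fold changes, 1500 kept direction and call, 79 lost and 8 gained a call, and 38 changed sign, 0 of them a called value. With a 2-fold limit, the genes called were 1023 (*E. coli*), 1187 (IFN-γ), 2210 (both), 404 (both against IFN-γ), 1325 (both against *E. coli*), 1027 (IFN-γ against *E. coli*), 245 (departure from the sum), 478 (IL-4) and 2728 (response difference). Of the 10 genes this limit left 2 for *E. coli*, 2 for IFN-γ, 3 for IFN-γ against *E. coli*, 0 for the departure from the sum by edgeR and 0 for IL-4. Without a filter or with DESeq2, 2 were called for *E. coli*, and without a filter IL-4 had 1634 genes. Leaving out replicate 3 of *E. coli* and of both gave 692 genes and 2 of the 10 for the departure from the sum, and -0.31 for *Mefv* with *E. coli*. Without TMM, signs turned for *Aim2* (IFN-γ -0.16, both -0.13, both against *E. coli* -0.17, departure -0.011), *Gsdmd* (both -0.094, IL-4 0.049, response difference 0.14) and *Nlrc4* (response difference 0.29). At least 10 counts in every library gave -0.029 for *Aim2* with IFN-γ and 0.0041 for *Gsdmd* with IL-4, and no filter -0.030 for *Aim2* in the departure. Leaving out each library in turn, the called genes among the 10 were 1 to 4 (*E. coli*), 3 to 6 (IFN-γ), 1 to 2 (departure) and 1 to 2 (IL-4), and all called genes 740 to 1234 (both against IFN-γ), 266 to 562 (departure) and 483 to 1394 (IL-4). Log2 fold changes with a change of sign ranged from -0.54 to 0.33 (*Nlrp3*, departure), -0.36 to 0.59 (*Nlrp1b*, IL-4), -0.32 to 0.35 (*Nlrc4*, response difference), -0.045 to 0.32 (*Pycard*, *E. coli*), -0.067 to 0.029 (*Gsdmd*, IL-4), -0.31 to 0.39 (*Mefv*, *E. coli*) and -0.020 to 0.40 (*Nek7*, IL-4). For *Aim2* they were -0.00027 to 0.16 (*E. coli*), -0.068 to 0.18 (IFN-γ), -0.040 to 0.22 (both against IFN-γ), -0.012 to 0.19 (both against *E. coli*), -0.14 to 0.10 (IFN-γ against *E. coli*) and -0.12 to 0.14 (departure). In fits of the 6 compared libraries alone, a replicate block called 1418 genes and 4 of the 10, *Nek7* among them, for both against IFN-γ (940 and 3 without the block), 3142 and 7 for both against *E. coli* (2883 and 7), and 2637 and 5 for IFN-γ against *E. coli* (2757 and 5). For each of these changes the cause was not tested. Genes that failed a stricter filter have no value there. Scaling without TMM, lifted counts and the pair left out were chosen after seeing the data. Depth limits *Nlrc4* and *Nlrp1b* most, with as few as 2 counts in a library.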

Other observations

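Several pathway genes had few or no counts. The highest count in any library of the 12-library and the 6-library set was 1 and 0 for *Nlrp1a*, 0 and 1 for *Nlrp6*, 4 and 5 for *Nlrp10*, 4 and 14 for *Gsdma*, 0 and 3 for *Gsdmc*, 7 and 18 for *Panx1* and 10 and 8 for *Nlrc3*. These genes are listed without a fold change.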
